A study of Rattus norvegicus with 60 samples.

Results

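Aldehyde dehydrogenases are the enzymes that oxidise aldehydes to acids. The genes described are the 9 rows of the count table whose gene symbol is Aldh1a1, Aldh1b1, Aldh2, Aldh3a2, Aldh6a1, Aldh7a1, Aldh8a1, Aldh9a1 or Aldh1l1, out of 32883 genes in all. All 9 passed the filter on low counts and were among the 12167 genes tested. RNA came from the liver of male Sprague-Dawley rats, a common outbred laboratory strain, with 1 library for each rat. Perfluorooctanoic acid (PFOA), a perfluorinated surfactant, or water as vehicle was gavaged daily in singly housed rats. The daily doses of PFOA were 1, 5 and 15 mg/kg, and livers were taken on days 7, 14 and 28. Each dose and the vehicle had 5 rats on each day, which made 12 groups and 60 libraries. The sample records give ages of 7 to 8 weeks for day 7, 8 to 9 weeks for day 14 and 10 to 11 weeks for day 28, while the design text gives 5 to 6 weeks. Dose and length of dosing are thus read in rats that also grew older between time points.

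Most of these enzymes use NAD+ or NADP+ and differ in the aldehyde they take. Aldh1a1 oxidises retinal to retinoic acid in the cytosol. Aldh2 is the main mitochondrial enzyme for acetaldehyde, and Aldh1b1 is a related mitochondrial enzyme. Aldh3a2 oxidises the fatty aldehydes that arise from fatty alcohols and from other long-chain lipids, and lies in the membranes of the endoplasmic reticulum and peroxisomes. Aldh6a1 acts on methylmalonate semialdehyde in the breakdown of valine and thymine. Aldh7a1 acts in lysine breakdown, and Aldh8a1 oxidises 2-aminomuconic semialdehyde in the breakdown of tryptophan. Aldh9a1 acts on trimethylaminobutyraldehyde, a step of carnitine synthesis. Aldh1l1 oxidises 10-formyltetrahydrofolate to tetrahydrofolate and carbon dioxide.

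Promoters were looked up in RefSeq (assembly GRCr8), which held 8 of the 9 genes. That assembly is not Rnor_6.0, the build named for the counts, so these positions apply to GRCr8 only. Each stretch runs from 250 bases before to 50 bases after the gene's start and is written 5′ to 3′ on the gene's own strand. The 3 shown belong to Aldh1a1 and Aldh3a2, which rose with PFOA, and to Aldh1l1, which passed no test against vehicle with 1 mean per group but was lower in 4 comparisons with a library score as a covariate. Capitals mark each CCAAT, or ATTGG where it lies on the opposite strand. Aldh1a1 is at chr1:227537370-227537669 on the plus strand, Aldh3a2 at chr10:46448286-46448585 on the minus strand and Aldh1l1 at chr4:124616970-124617269 on the plus strand.
Aldh1a1: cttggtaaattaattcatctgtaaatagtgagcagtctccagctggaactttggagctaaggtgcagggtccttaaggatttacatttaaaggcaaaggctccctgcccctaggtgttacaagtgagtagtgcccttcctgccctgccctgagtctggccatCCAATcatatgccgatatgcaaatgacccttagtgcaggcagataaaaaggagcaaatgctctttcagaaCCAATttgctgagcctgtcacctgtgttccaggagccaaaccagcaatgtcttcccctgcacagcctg
Aldh3a2: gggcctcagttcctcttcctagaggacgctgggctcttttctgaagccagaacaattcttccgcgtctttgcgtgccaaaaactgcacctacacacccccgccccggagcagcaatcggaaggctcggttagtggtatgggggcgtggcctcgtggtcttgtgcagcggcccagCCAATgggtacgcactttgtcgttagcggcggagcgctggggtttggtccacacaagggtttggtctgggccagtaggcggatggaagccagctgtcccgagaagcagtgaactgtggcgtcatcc
Aldh1l1: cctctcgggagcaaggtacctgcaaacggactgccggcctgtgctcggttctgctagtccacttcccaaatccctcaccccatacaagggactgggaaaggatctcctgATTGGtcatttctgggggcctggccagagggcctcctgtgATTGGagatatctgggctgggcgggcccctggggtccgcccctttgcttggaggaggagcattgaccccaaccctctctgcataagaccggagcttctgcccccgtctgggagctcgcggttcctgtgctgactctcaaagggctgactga
CCAAT on either strand was in 7 of the 8 promoters (not in Aldh8a1), against 37.5% of 33469 promoters of the same length. The nuclear receptor half-site AGGTCA was in that of Aldh9a1 alone, against 16.2% of all promoters. A direct repeat of AGGTCA with 1 base between, and the looser repeat of AGGNCA with the same spacing, were in none of the 8, and in 0.0538% and 0.415% of all promoters. A repeat of AGNTCA with 4 bases between was also in none (0.0568% of all). The antioxidant response core TGACNNNGC was in the promoter of Aldh9a1 (12.1% of all), and TATAAA was in none (14.2%). In Aldh9a1 the half-site and this core share letters of a single stretch, TGACCTCGC, which begins at base 27 after the gene's start. All motifs were searched on both strands, and the looser repeat includes every match of the strict one. The promoter of Aldh1a1 had 48.3% G and C and 1 CpG, and that of Aldh3a2 had 60.3% and 19 CpG, beside medians of 51.7% and 7 over all promoters. These matches describe letters and were not tied to any factor.

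Total counts per library lay between 7965497 and 24770119. Levels are given as CPM, counts scaled to 1000000 per library after TMM scaling of library size, and log2 fold changes as value ± SE. A gene was called, and is said to have risen or fallen, at an adjusted p under 0.05 in edgeR's quasi-likelihood test with Benjamini-Hochberg adjustment over the 12167 genes. The design text treats each rat as a biological replicate. Hepatocyte markers chosen for this work, such as Alb and Apoa1, held between 57000 and 254000 CPM in every library in sum. Summed markers of other cells were far lower, at 137 to 988 CPM for Kupffer cells, 158.5 to 678.5 for stellate cells, 132 to 305.5 for endothelial cells, 9.96 to 51.95 for cholangiocytes, 18.5 to 3920 for erythroid cells and 4.55 to 25.2 for lymphocytes. No marker in the table was at 0 in all 5 libraries of any group. In bulk liver, fewer cells of a type and less RNA per cell cannot be told apart.

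Against the vehicle group of the same day, Aldh1a1 rose in 8 of 9 comparisons and Aldh3a2 in 6 of 9. The other 7 genes passed in none with edgeR and 1 mean per group (the fit with a library score comes further on). On day 7, 0 of the 9 genes were called at 1 mg/kg, 2 at 5 mg/kg and 2 at 15 mg/kg, where 0.115%, 6.14% and 14.0% of all genes were called. The 1 mg/kg count on day 7 was also 0 with DESeq2's Wald test and with limma-voom, and 1 gene (Aldh3a2) had an unadjusted p under 0.05. On day 14 the counts were 1, 2 and 2, where 6.71%, 10.7% and 22.8% of all genes were called. On day 28 they were again 1, 2 and 2, where 3.23%, 10.5% and 17.2% of all genes were called. Every called gene of the 9 was higher than vehicle, and wherever Aldh1a1 or Aldh3a2 was called no treated liver overlapped vehicle. Among all genes, the share higher without overlap was 0.485%, 2.38% and 5.19% on day 7 in order of dose, 4.52%, 3.85% and 6.78% on day 14, and 3.08%, 4.40% and 5.84% on day 28. The median log2 fold change of the 9 genes lay between -0.18 and 0.71 over the 9 comparisons, and that of all genes between -0.03 and 0.04.

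**Figure D1:**
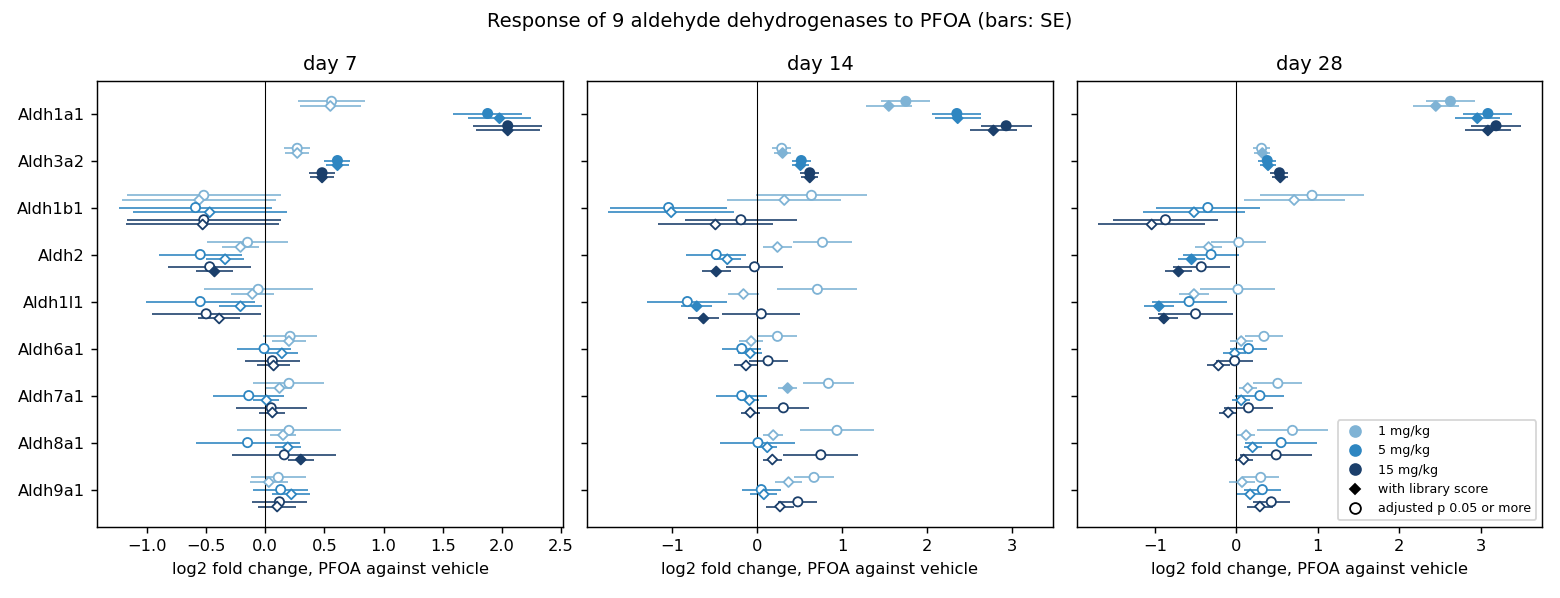
Log2 fold change against vehicle of the same day (x axis) for the 9 genes (rows) on days 7, 14 and 28 (panels), by dose (shade). Circles are the group-means fit and diamonds the fit with the library score as a covariate, filled where the adjusted p was under 0.05, with bars of 1 SE. In the group-means fit Aldh1a1 reaches 3.19 at 15 mg/kg on day 28 and Aldh3a2 stays between 0.27 and 0.62.

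Aldh1a1 (ENSRNOG00000017619), the retinal-oxidising enzyme, showed the largest fold changes of the 9 genes, and its vehicle level also differed between days. On day 7 the vehicle livers held 484, 467, 356, 169 and 318.7 CPM. Livers given 1 mg/kg held 603, 537, 571, 351 and 592 CPM. These ranges overlapped through 1 treated liver, the other 4 being above all vehicle livers, and the log2 fold change of 0.56 ± 0.28 was not called (edgeR adjusted p = 0.916). At 5 mg/kg the levels were 1414, 1278, 1161, 1724 and 1035 CPM. At 15 mg/kg they were 1595, 1904, 1213, 1444 and 1280.1 CPM. All 10 livers of these higher doses lay above all 5 of vehicle. Aldh1a1 thus rose by 1.88 ± 0.29 at 5 mg/kg (3.68-fold, edgeR adjusted p = 8.81e-06) and by 2.05 ± 0.29 at 15 mg/kg (4.14-fold, edgeR adjusted p = 8.23e-07).

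On day 14 the lowest dose was also above vehicle. Vehicle livers held 259.4, 162, 197, 169 and 174 CPM of Aldh1a1, and livers at 1 mg/kg held 586, 708, 697, 492 and 751 CPM. Livers at 5 mg/kg held 1098, 832, 1375, 788 and 797 CPM, and those at 15 mg/kg held 1268, 1322, 1191, 1753 and 1785 CPM. No treated liver overlapped the vehicle range at any dose, and the livers at 5 mg/kg lay above all those at 1 mg/kg. The log2 fold changes against vehicle were 1.75 ± 0.29, 2.35 ± 0.29 and 2.93 ± 0.30 in order of dose (edgeR adjusted p = 8.96e-05, 6.32e-08 and 2.15e-10).

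The day 28 vehicle livers held the least Aldh1a1 and varied most. Their levels were 36.0, 242, 69.6, 185 and 129 CPM, a coefficient of variation of 63.3%, where the other 11 groups lay between 16.4% and 35.5%. Livers at 1 mg/kg held 836, 578, 994, 942 and 726 CPM. Those at 5 mg/kg held 1362, 1591, 1067, 711 and 906 CPM, and those at 15 mg/kg 1579, 1153, 943, 1069 and 1295 CPM. Every treated liver was above every vehicle liver, while the doses overlapped each other. Dose by dose, the fold changes exceeded those of days 7 and 14, at 2.63 ± 0.30, 3.09 ± 0.30 and 3.19 ± 0.31 on the log2 scale (6.17-fold, 8.53-fold and 9.14-fold; edgeR adjusted p = 1.35e-08, 8.11e-11 and 2.08e-11).

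**Figure D2:**
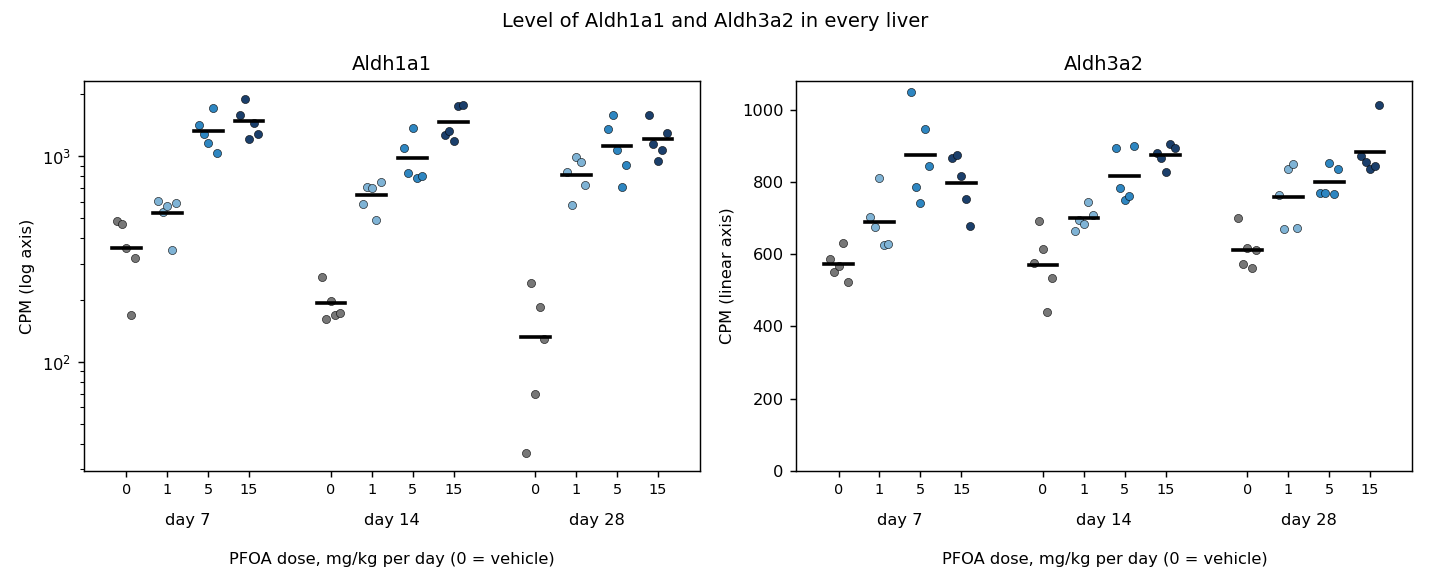
CPM of Aldh1a1 (left, log axis) and Aldh3a2 (right, linear axis from 0) in each of the 60 livers, by dose and day. Points are livers and bars are means of 5. Vehicle means of Aldh1a1 go from 359 to 132 CPM between days 7 and 28, while treated means at 15 mg/kg stay between 1210 and 1490 CPM.

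Ordered by level, the Aldh1a1 group means began with vehicle on day 28 (132 ± 83.6 CPM, SD, n = 5), vehicle on day 14 (192 ± 39.8) and vehicle on day 7 (359 ± 127). The 1 mg/kg groups followed in the order of days 7, 14 and 28 at 531 ± 104, 647 ± 106 and 815 ± 168 CPM. Above them the higher doses were mixed. The groups at 5 mg/kg on days 14 and 28 (978.1 and 1130 ± 352 CPM) came first, then 15 mg/kg on day 28 (1210 ± 244), 5 mg/kg on day 7 (1320 ± 264.9) and 15 mg/kg on days 14 and 7 (1460 ± 282.9 and 1490 ± 276.4 CPM). The 5 mg/kg group of day 14 had a coefficient of variation of 26.2%. Neighbours within the vehicle groups, within the 1 mg/kg groups and within the 6 groups of higher doses overlapped each other. Among the steps between doses tested, that from 1 to 5 mg/kg on day 7 alone passed with 1 mean per group. Aldh1a1 rose there by 1.32 ± 0.29 (edgeR adjusted p = 0.00369), and it was 1 gene of the 9, where 2.38% of all genes were called. The same step gave 0.60 ± 0.28 on day 14 without overlap (edgeR adjusted p = 0.117), which passed with the library score (0.82 ± 0.27, edgeR adjusted p = 0.0374), and 0.47 ± 0.28 on day 28 (edgeR adjusted p = 0.842). On day 28 this step called 0 of the 9 genes with edgeR, DESeq2 and limma-voom, none had an unadjusted p under 0.05, and 0.329% of all genes were called. From 5 to 15 mg/kg the log2 differences of 0.17, 0.58 and 0.10 on days 7, 14 and 28 had 95% intervals of -0.39 to 0.73, 0.02 to 1.15 and -0.46 to 0.66. Of the 9 genes 0 were called at this step on any day, also with DESeq2 and limma-voom, where edgeR called 0.329%, 0% and 0.0411% of all genes on the 3 days. Only Aldh1a1 on day 14 had an unadjusted p under 0.05 there.

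The fall of the vehicle level with time was one reason for choosing Aldh1a1, so it is given as a description, and its p-values are no independent test. Vehicle livers were lower by 1.44 ± 0.29 on the log2 scale on day 28 than on day 7, with overlap between the groups (edgeR adjusted p = 0.0202, and 0.0411% of all genes called). The difference was called in none of the fits that left out vehicle replicates 1, 2 or 3 of day 7 or 1, 3 or 5 of day 28, where it ran from -1.41 to -1.17. It was also not called in a fit of these groups alone (-1.43, edgeR adjusted p = 1.0). Day 14 against day 7 gave -0.90 ± 0.28 (edgeR adjusted p = 0.852) and day 28 against day 14 gave -0.54 ± 0.28 (edgeR adjusted p = 0.555), and these comparisons called 0% of all genes. Treated livers did not show such a difference past the threshold. In 6 comparisons of treated groups with day 7 that were added after the data were seen, log2 differences of Aldh1a1 ran from -0.44 to 0.62, and none was called by edgeR, DESeq2 or limma-voom. From day 7 to days 14 and 28 edgeR called 0.189% and 0.723% of all genes at 1 mg/kg, 0.132% and 2.04% at 5 mg/kg, and 0% and 0.0575% at 15 mg/kg. The highest, at 1 mg/kg on day 28, was 0.62 ± 0.28 with an edgeR adjusted p of 0.27 and had an unadjusted p under 0.05.

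The differences between days in the effect of a dose on Aldh1a1 contain the same vehicle difference, so they too are given as a description. For 1 mg/kg the effect on day 28 minus that on day 7 was 2.06 ± 0.40 on the log2 scale, of which the vehicle groups gave 1.44. Its edgeR adjusted p of 0.0106 (interaction term) is no independent test, and the call was lost with the counts of Aldh1a1 and its copy Aldh1a7 summed (1.90, edgeR adjusted p = 0.183). It was 1 gene of the 9, where 0.0575% of all genes were called. The groups behind it had vehicle means of 359 and 132 CPM and means at 1 mg/kg of 531 and 815 CPM. At 5 and 15 mg/kg the effects on day 28 exceeded those on day 7 by 1.21 ± 0.40 and 1.14 ± 0.40 without passing (edgeR adjusted p = 0.468 and 0.997), where 0.00822% and 0% of all genes were called. From day 7 to day 14 the effects of 1, 5 and 15 mg/kg grew by 1.19, 0.47 and 0.88 (SE 0.40 each) without passing, where 0.148%, 0% and 0% of all genes were called.

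Aldh1a1 has a close copy in the rat, Aldh1a7, known there as the phenobarbital-inducible form, and reads could be split between them. Aldh1a7 rose in 7 of the 9 comparisons, by 2.70 to 5.45 on the log2 scale. It was not called at 1 mg/kg on day 7 (1.42 ± 0.82) or day 28 (2.24 ± 0.85). At 15 mg/kg on day 14 its mean went from 16.7 ± 3.79 to 733 ± 462 CPM (SD, n = 5). Single livers stood far from the rest of their groups. Vehicle replicate 2 of day 7 had 2 counts of Aldh1a7 beside 467 CPM of Aldh1a1, PFOA 5 mg/kg replicate 5 of day 7 had 14 counts, and vehicle replicate 1 of day 28 had 8 counts. With the counts of both genes summed, the same 8 dose comparisons were called. The vehicle difference between days 28 and 7 became -1.35 (edgeR adjusted p = 0.106), and the interaction at 1 mg/kg was also lost, as given above.

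Aldh3a2 (ENSRNOG00000002342), the fatty aldehyde enzyme, had a smaller change and a tighter spread, with coefficients of variation of 3.37% to 16.4% within groups. On day 7 vehicle livers held 586, 550, 568, 631 and 524 CPM. Livers at 5 mg/kg held 1049, 787, 743, 947 and 844 CPM, and those at 15 mg/kg 866, 874, 817, 752 and 679 CPM. Both higher doses lay wholly above vehicle. Livers at 1 mg/kg held 702, 675, 810, 626 and 629 CPM, of which 2 lay within the vehicle range. Aldh3a2 rose by 0.61 ± 0.11 at 5 mg/kg and by 0.48 ± 0.11 at 15 mg/kg (1.53-fold and 1.39-fold; edgeR adjusted p = 0.000147 and 0.00145). The 1 mg/kg difference of 0.27 ± 0.11 was not called (edgeR adjusted p = 0.65).

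On days 14 and 28 the same doses passed. Day 14 vehicle livers held 576, 691, 614, 439 and 534 CPM of Aldh3a2, and those at 1 mg/kg 665, 695, 684, 746 and 708 CPM. Livers at 5 mg/kg held 893, 784, 751, 761 and 901 CPM, and those at 15 mg/kg 880.3, 866, 829, 904 and 895 CPM. The 15 mg/kg group was the tightest of all. Log2 fold changes were 0.29 ± 0.11 (not called, edgeR adjusted p = 0.0863), 0.52 ± 0.11 and 0.62 ± 0.11 (edgeR adjusted p = 0.000764 and 3.75e-05). The 1 mg/kg difference passed with DESeq2 (0.28, adjusted p = 0.0423) and without vehicle replicate 2 (0.39, edgeR adjusted p = 0.0271). Day 28 vehicle livers held 700.4, 572, 616, 563 and 612 CPM, and those at 1 mg/kg 764, 671, 836, 850.0 and 674 CPM. Livers at 5 mg/kg held 769.7, 771, 854, 768 and 836 CPM, and those at 15 mg/kg 871, 856, 838, 844 and 1012 CPM. The higher doses again did not overlap vehicle. Log2 fold changes were 0.31 ± 0.11 (not called, edgeR adjusted p = 0.109), 0.38 ± 0.11 and 0.53 ± 0.11 (edgeR adjusted p = 0.0161 and 0.000339).

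The Aldh3a2 group means began with the 3 vehicle groups at 571, 572 and 613 CPM, followed by the 1 mg/kg groups at 689, 700 and 759 CPM on days 7, 14 and 28. The 15 mg/kg group of day 7 came next with 798 CPM, then 5 mg/kg at 800 CPM (day 28), 818 CPM (day 14) and 874 CPM (day 7), and 15 mg/kg at 875 CPM (day 14) and 884 CPM (day 28). No step between neighbouring doses was called for Aldh3a2 with edgeR and 1 mean per group, and the widest was 5 against 1 mg/kg on day 7, at 0.34 ± 0.11 (edgeR adjusted p = 0.0873). That step passed with DESeq2 (adjusted p = 0.00691), with the library score (edgeR adjusted p = 0.0187), and without replicate 3 of 1 mg/kg (edgeR adjusted p = 0.0484) or of 5 mg/kg (edgeR adjusted p = 0.0322). The day 14 step of 5 against 1 mg/kg passed with DESeq2 alone (0.28, adjusted p = 0.0309). The effect of no dose differed between days past the threshold, with interaction values between -0.23 and 0.14. The day 28 call at 5 mg/kg was lost without vehicle replicate 2 (0.34, edgeR adjusted p = 0.0558) or without PFOA 5 mg/kg replicate 3 (0.35, edgeR adjusted p = 0.0618). The day 7 call at 15 mg/kg was lost in a fit of day 7 libraries alone (0.46, edgeR adjusted p = 0.0664).

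Marker genes of hepatocytes and of other cells moved at 15 mg/kg, where Aldh1a1 and Aldh3a2 rose. Calls of markers are given for that dose and for 1 mg/kg on day 28 only. At 15 mg/kg on day 14, 7 of 8 Kupffer cell markers, 3 of 8 stellate cell markers, 3 of 6 hepatocyte, 2 of 4 lymphocyte and 1 of 6 endothelial markers fell, and none of any list rose. Summed Kupffer markers were 517 to 988 CPM in vehicle and 137 to 406 CPM at 15 mg/kg on that day. Summed hepatocyte markers were 116000 to 179000 CPM in vehicle and 57000 to 125000 CPM at 15 mg/kg. On day 28 at that dose 3 of 8 Kupffer, 2 of 8 stellate and 2 of 6 hepatocyte markers fell, and on day 7 they were 1, 3 and 4. On day 7 at that dose 3 of 4 erythroid markers tested also fell, with sums of 134 to 1840 CPM in vehicle and 27.1 to 219.8 CPM in treated livers, and 1 of 4 cholangiocyte markers tested rose. At 1 mg/kg on day 28, where Aldh1a1 rose, edgeR called 0 of the 22 Kupffer, stellate and hepatocyte markers, and 4 had an unadjusted p under 0.05. Of 6 endothelial markers 1 rose there and 4 were higher at an unadjusted p under 0.05, with sums of 152 to 198 CPM in vehicle and 174 to 285.2 CPM at 1 mg/kg. Among all genes, edgeR called 14.0%, 22.8% and 17.2% at 15 mg/kg on days 7, 14 and 28, and 3.23% at 1 mg/kg on day 28. Small counts, such as 1 of 6 endothelial or 1 of 8 Kupffer markers, lie near those shares at 15 mg/kg. The part of cell composition in the results was not tested.

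The mitochondrial acetaldehyde enzymes were not called against vehicle by edgeR with 1 mean per group. Over the 63 tests of the other 7 genes (7 genes, 9 comparisons) edgeR called 0 and limma-voom 0, DESeq2 called 2, and 5 had an unadjusted p under 0.05. The 2 were Aldh7a1 and Aldh9a1, each at 1 mg/kg on day 14. Aldh2 (ENSRNOG00000001344) means ran from 364 CPM at 5 mg/kg on day 14 to 867 CPM at 1 mg/kg on day 28, with log2 fold changes of -0.55 to 0.77. Its livers spread widely, such as 448, 634, 1420, 1182 and 549 CPM in the day 28 vehicle group, which overlapped all 3 doses. Aldh1b1 (ENSRNOG00000011497) was low, with group means of 1.63 to 8.12 CPM and between 7 and 357 counts in a library. At 1 mg/kg on day 28 its 5 livers held 2.79, 1.46, 3.51, 31.1 and 1.69 CPM, and the group mean of 8.12 CPM rested on 1 liver. Log2 fold changes of Aldh1b1 lay between -1.04 and 0.93 with SEs of 0.64 to 0.69, and all 9 of their 95% intervals included 0.

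Aldh6a1, Aldh7a1 and Aldh8a1, the enzymes of valine, lysine and tryptophan breakdown, were not called against vehicle by edgeR with 1 mean per group either. Aldh6a1 (ENSRNOG00000011419) had group means of 757 to 1190 CPM and log2 fold changes of -0.18 to 0.34. Aldh7a1 (ENSRNOG00000014645) came nearest of the 3, at 1 mg/kg on day 14. Its vehicle livers held 213, 301, 178, 156 and 201 CPM and the treated ones 467, 403, 434.5, 259.9 and 316.003 CPM, with 1 treated liver inside the vehicle range. The log2 fold change was 0.84 ± 0.30 (edgeR adjusted p = 0.0718), and its 95% interval was 0.24 to 1.44. This difference passed with DESeq2 (0.83, adjusted p = 0.0406). In edgeR it passed without vehicle replicate 2 (adjusted p = 0.0359) or 1 mg/kg replicate 4 (adjusted p = 0.0402). Aldh8a1 (ENSRNOG00000014907) varied from liver to liver, with 312.8, 537, 152, 158 and 629.8 CPM in the day 7 vehicle group. Its log2 fold changes ran from -0.15 to 0.94, with SEs of about 0.44.

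Aldh9a1 (ENSRNOG00000004027), of carnitine synthesis, had means of 158 to 264.5 CPM, and all 9 of its log2 fold changes were above 0, between 0.05 and 0.67. The highest, at 1 mg/kg on day 14, had an SE of 0.23 and an edgeR adjusted p of 0.063. That value passed with DESeq2 (0.66, adjusted p = 0.0335). In edgeR it passed without vehicle replicate 2 (adjusted p = 0.0485) or 1 mg/kg replicate 4 (adjusted p = 0.0282). Aldh1l1 (ENSRNOG00000047023), the folate enzyme, had means of 48.6 to 147 CPM. Its log2 fold changes lay between -0.82 and 0.71 with SEs near 0.46, and the smallest edgeR adjusted p was 0.288. In the day 7 vehicle group its 5 livers held 81.1, 208, 67.1, 39.6 and 207 CPM.

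**Figure D3:**
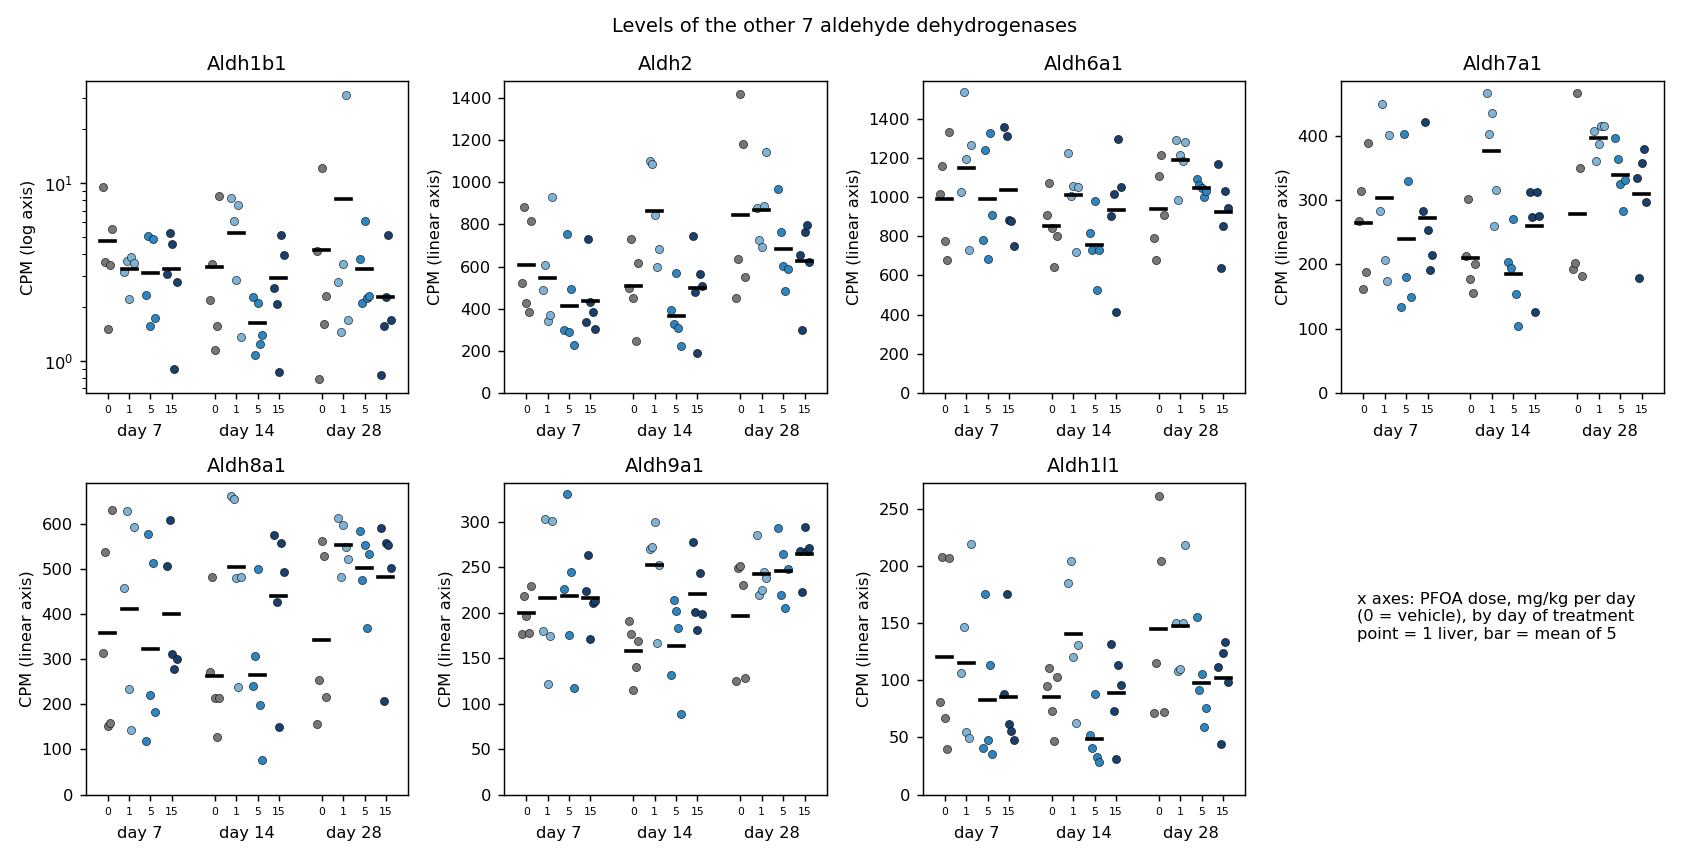
CPM of the other 7 genes in each liver, by dose (x axis, mg/kg per day) and day, with the axis of Aldh1b1 on a log scale and the others linear from 0. Points are livers and bars are means of 5. Treated and vehicle livers overlap in every panel and comparison against vehicle.

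For 3 of these genes the step from 1 to 5 mg/kg on day 14 was called, a comparison in which 12.1% of all genes were called. Aldh1l1 was lower by 1.53 on the log2 scale at the higher dose (SE 0.47, edgeR adjusted p = 0.0317). The 5 mg/kg livers held 52.3, 40.9, 88.3, 33.1 and 28.2 CPM and the 1 mg/kg livers 185, 204, 120.4, 62.8 and 131 CPM, with overlap. Aldh2 was lower by 1.24 (SE 0.35, edgeR adjusted p = 0.0189), at 393, 329, 569, 309.4 and 222 CPM against 1102, 1085, 846, 599 and 683 CPM, without overlap. Aldh7a1 was lower by 1.02 (SE 0.30, edgeR adjusted p = 0.0249). These calls rested on few libraries. None of the 3 was called without PFOA 1 mg/kg replicate 1 or 2 or PFOA 5 mg/kg replicate 4 or 5 of day 14, where Aldh1l1 ran from -1.43 to -1.36. Aldh7a1 was also lost without 1 mg/kg replicate 3 (edgeR adjusted p = 0.0554) and Aldh1l1 without 5 mg/kg replicate 2 (edgeR adjusted p = 0.0565). With no filter on low counts Aldh1l1 was lost too (-1.56, edgeR adjusted p = 0.0506). Without 5 mg/kg replicate 3, 5 genes were called. The 2 groups differed in mean library score (described next), at 0.474 for 1 mg/kg and -0.863 for 5 mg/kg. With the score as a covariate the differences stayed called but were smaller, at -0.55 ± 0.19 for Aldh1l1, -0.60 ± 0.17 for Aldh2 and -0.45 ± 0.11 for Aldh7a1 (edgeR adjusted p = 0.0465, 0.0169 and 0.00714). Without the 3 libraries of lowest library score, edgeR gave adjusted p of 0.068 for Aldh2, 0.0829 for Aldh7a1 and 0.0986 for Aldh1l1.

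For most of these genes, but not for Aldh1a1, Aldh1b1 or Aldh3a2, the spread within groups largely followed a single axis shared by many genes. A library score was computed from 500 genes, with the 9 left out, along the first axis of the differences from group means. That axis held 58.9% of the variance within groups over all genes tested. The sign of the score was set so that cytosolic ribosomal protein genes go down along it (median r of -0.983 over 66 genes). Over the 60 livers, as deviations from group means, the score went with Aldh8a1 (Pearson r = 0.973), Aldh7a1 (0.938), Aldh1l1 (0.926), Aldh2 (0.881), Aldh6a1 (0.808) and Aldh9a1 (0.719). It went less with Aldh1a1 (0.392) and Aldh1b1 (0.331) and not with Aldh3a2 (-0.065). The median over all genes was 0.13, taken with sign, so that genes going up and down along the axis offset each other. That median does not measure how strongly a typical gene follows the axis. These are descriptions over libraries that share the score, with no test. The score itself was computed from levels not centred by group, so it also carries differences between groups. Group means of the score ran from -0.863 at 5 mg/kg on day 14 to 0.778 at 1 mg/kg on day 28. Whether PFOA changes the score was not tested. What the axis stands for was not tested.

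**Figure D4:**
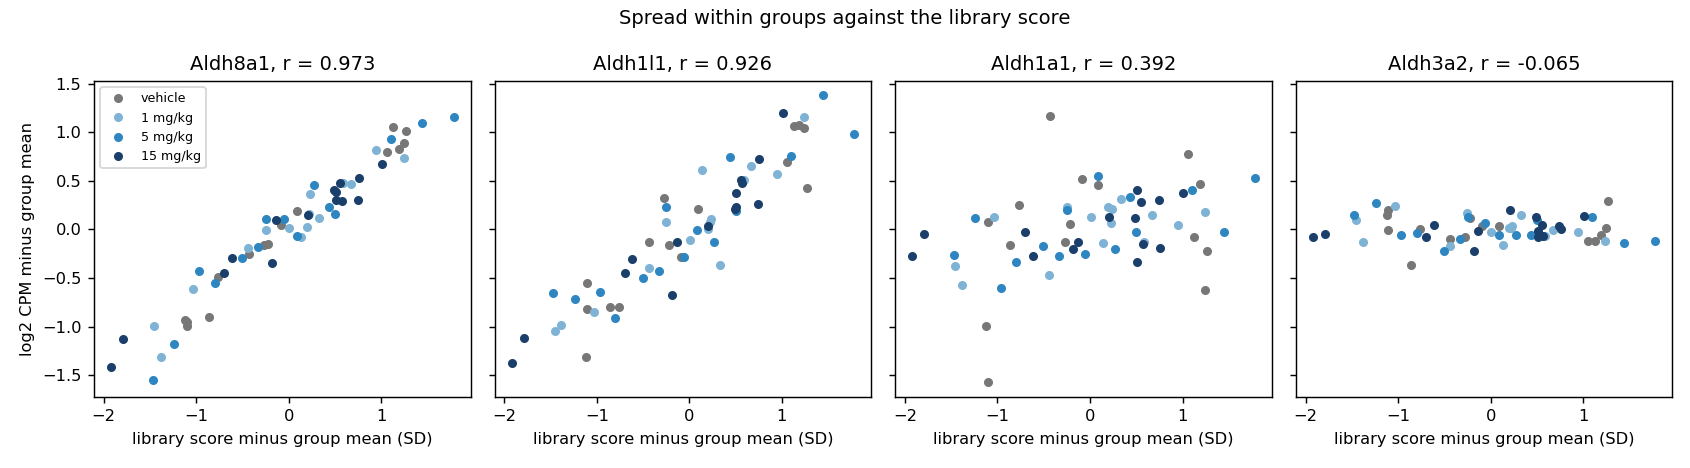
Deviation of log2 CPM from the group mean (y axis) against deviation of the library score from its group mean (x axis, in SDs) for 4 genes in the 60 livers. Points are livers, shaded by dose. Aldh8a1 and Aldh1l1 follow the score (r of 0.973 and 0.926), Aldh1a1 weakly (0.392) and Aldh3a2 not (-0.065).

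With the score as a covariate more genes passed, among the 9 as among all genes. This fit compares groups at equal score, although the groups differed in it. On day 14 its mean was -0.605 in vehicle and 0.161 at 15 mg/kg, and on day 28 -0.228 and 0.439. A call made only in this fit thus rests on the score being in it, through a changed estimate, a changed SE or both. All 8 calls of Aldh1a1 and all 6 of Aldh3a2 passed again, and Aldh3a2 also at 1 mg/kg on days 14 and 28 (0.30 ± 0.10 and 0.32 ± 0.10; edgeR adjusted p = 0.0346 and 0.0347). Aldh2 was then lower than vehicle at 15 mg/kg on all 3 days, by -0.43 ± 0.16, -0.48 ± 0.17 and -0.71 ± 0.17 in order of day, and at 5 mg/kg on day 28 (-0.55 ± 0.16). Aldh1l1 was lower at 5 and 15 mg/kg on day 14 (-0.71 ± 0.18 and -0.63 ± 0.18) and on day 28 (-0.95 ± 0.18 and -0.89 ± 0.18). Without the score the values for Aldh2 were -0.47, -0.03 and -0.43 at 15 mg/kg in order of day, and -0.31 at 5 mg/kg on day 28. Those for Aldh1l1 at 5 and 15 mg/kg were -0.82 and 0.05 on day 14, and -0.58 and -0.5 on day 28. At 15 mg/kg on day 14 the value for Aldh1l1 without the score was thus 0.05 ± 0.46, of the other sign. Aldh8a1 was higher at 15 mg/kg on day 7 (0.30 ± 0.11, and 0.16 without the score). Aldh7a1 was higher at 1 mg/kg on day 14 (0.36 ± 0.11, and 0.84 without the score). In these fits 18.5%, 30.9% and 25.3% of all genes were called at 5 mg/kg on days 7, 14 and 28, and 38.2%, 41.6% and 35.5% at 15 mg/kg. At 1 mg/kg they were 1.45%, 12.7% and 7.44%.

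The group means of Aldh1a1 were most like those of Cyp2b2 (Pearson r = 0.989 over the 12 group means of log2 CPM), Cyp2b1 (0.984) and Adam22 (0.972). Cyp2b1 and Cyp2b2 are cytochrome P450 enzymes of drug metabolism, and near-identical copies whose reads may be split. Cyp2b1 had means of 149 CPM in vehicle and 2780 CPM at 15 mg/kg on day 7, and of 86.1 and 2180 CPM on day 28. The genes most like Aldh3a2 were Abcd3 (0.977), a peroxisomal transporter of fatty acids, Hadh (0.973), a mitochondrial β-oxidation enzyme, and Ehhadh (0.969), the bifunctional enzyme of peroxisomal β-oxidation. Adam22 was low, with group means of 0.668 to 4.81 CPM. The correlations compare the pattern over groups and not the size of a change. From vehicle to 15 mg/kg on day 7, Ehhadh went from 816 to 18900 CPM and Aldh3a2 from 572 to 798 CPM. The points share their vehicle groups and libraries, so the correlations carry no test.

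**Figure D5:**
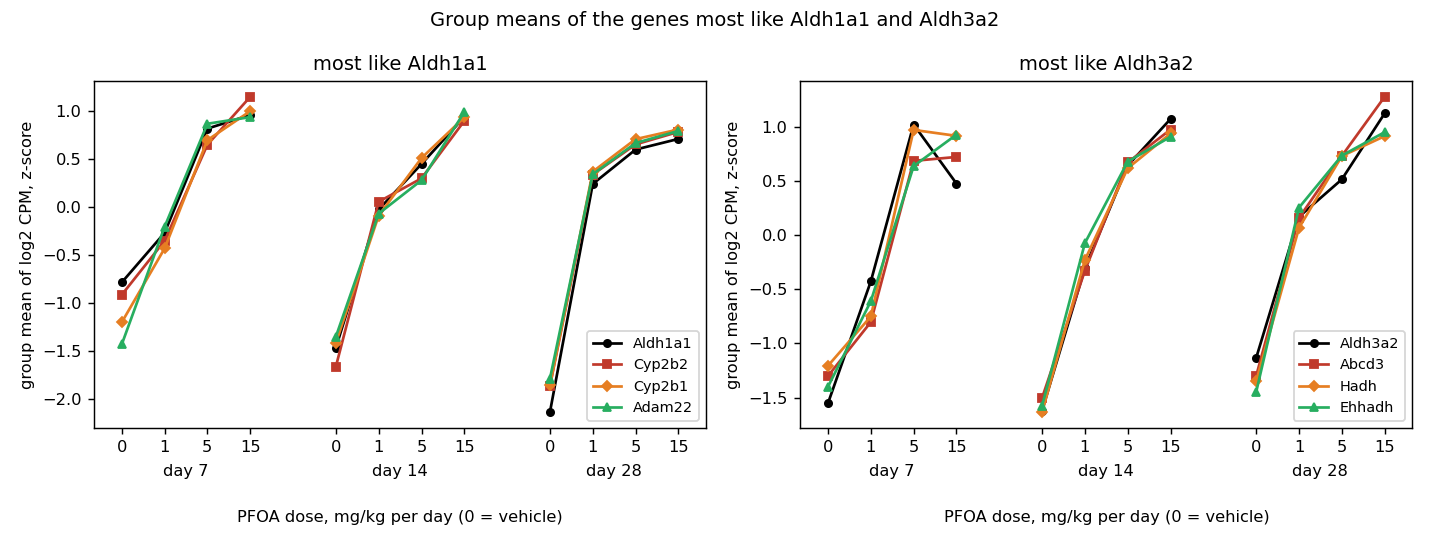
Group means of log2 CPM, scaled to z-scores over the 12 groups, for Aldh1a1 (left) and Aldh3a2 (right) with the 3 genes of highest correlation, by dose and day. Lines join the doses of a day. The genes on the left have r of 0.972 to 0.989 with Aldh1a1, and those on the right 0.969 to 0.977 with Aldh3a2.

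Among other aldehyde dehydrogenases, 9 of 11 symbols looked up were in the table and 6 were tested. Aldh5a1, the succinate semialdehyde enzyme of GABA breakdown, rose at 15 mg/kg on day 14 from 44.8 ± 13.7 to 95.7 ± 27.7 CPM and on day 28 from 49.9 ± 15.2 to 107 ± 28.3 CPM (SD, n = 5), each by 1.10 ± 0.31. Treated livers overlapped vehicle on both days, and 22.8% and 17.2% of all genes were called there. Within groups Aldh5a1 followed the library score (r = 0.922), in which these groups differed. Its values with the score as a covariate are not given here. Aldh16a1 rose on day 14 at 1 mg/kg (0.82 ± 0.24) and 15 mg/kg (0.68 ± 0.24). Aldh1a3, another retinal enzyme, fell by 0.82 at 15 mg/kg on day 7 (SE 0.20), from 22.4 ± 3.30 to 12.7 ± 4.33 CPM. Aldh1l2, the mitochondrial partner of Aldh1l1, and Aldh1a2 were not called against vehicle. Aldh3a1, Aldh3b1 and Aldh18a1 were too low to test, and Aldh18a1 was at 0 in all libraries.

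The pathways around the 9 genes were read at 15 mg/kg, by counts of called genes. In retinoid metabolism, where Aldh1a1 acts, 1 of 19 genes rose and 2 fell on day 7, 2 and 5 on day 14, and 2 and 2 on day 28. Dhrs4, a retinal reductase, rose by 1.01 ± 0.22, 1.17 ± 0.22 and 1.07 ± 0.22 on the 3 days. Rdh10, which makes retinal from retinol, fell by 0.86, 0.83 and 1.03 (SE 0.17 on each day). Rdh5 fell by 1.27, 1.6 and 1.77 on the 3 days (SEs 0.41, 0.42 and 0.42). Around Aldh3a2, 14 genes listed near fatty aldehyde metabolism were tested, fatty acid hydroxylases and Hao1 among them. Of these 4 rose and 2 fell on day 7, 5 and 2 on day 14, and 5 and 3 on day 28. The fatty acid hydroxylase Cyp4a1 went from 404 to 6450 CPM on day 7, and it rose by 4.07 ± 0.46 on day 14 and 4.08 ± 0.46 on day 28. Cyp4f1 fell on days 7 and 28 (-0.97 ± 0.30 and -0.85 ± 0.29), and Hao1, a peroxisomal hydroxyacid oxidase, on each day (-0.81, -0.70 and -0.71). Cyp4a1 has related genes in the rat, such as Cyp4a2 and Cyp4a3, which share part of its sequence. Of 12 genes of alcohol and acetaldehyde oxidation, 0 rose and 1 fell on day 7 (1 and 3 at an unadjusted p under 0.05), 2 and 2 on day 14, and 1 and 1 on day 28. The 1 that rose on day 28 was Adh5 (0.66 ± 0.20).

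In tryptophan breakdown and NAD synthesis, where Aldh8a1 acts, 2 of 17 genes rose and 4 fell on day 7, 4 and 4 on day 14, and 1 and 5 on day 28. Acmsd makes the substrate of Aldh8a1 and fell on all 3 days. Its level went from 18.0 ± 8.68 to 3.06 ± 1.22 CPM on day 7, from 23.8 ± 9.89 to 2.53 ± 0.761 on day 14 and from 21.5 ± 8.98 to 1.73 ± 0.653 on day 28 (SD, n = 5). These are log2 fold changes of -2.55 ± 0.43, -3.24 ± 0.44 and -3.64 ± 0.45 (edgeR adjusted p = 1.85e-05, 1.77e-07 and 2e-08). Kynu, the kynureninase, rose by 0.49 ± 0.13, 0.53 ± 0.13 and 0.40 ± 0.13. Kmo, the kynurenine monooxygenase, fell on days 14 and 28 (-1.19 ± 0.33 and -1.43 ± 0.33). In lysine and choline breakdown, with Aldh7a1, 1 of 11 genes rose and 2 fell on each day. Crym, a ketimine reductase, fell by 1.69, 2.46 and 1.69 (SEs 0.46, 0.47 and 0.46).

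Of 24 folate genes around Aldh1l1, 4 rose on day 7, 7 on day 14 and 4 on day 28, and 0 fell by edgeR (0, 1 and 4 at an unadjusted p under 0.05). Mthfd2, a mitochondrial folate enzyme, rose from 0.924 ± 0.141 to 5.68 ± 1.95 CPM on day 7 (2.61 ± 0.50) and by 1.57 ± 0.50 and 2.65 ± 0.53 on days 14 and 28. Gart, of purine synthesis, rose by 0.73 ± 0.22, 1.07 ± 0.22 and 0.67 ± 0.22. Of 18 genes of valine and pyrimidine breakdown around Aldh6a1, 2 rose and 4 fell on day 7, 2 and 3 on day 14, and 1 and 3 on day 28. Acadsb, a short branched-chain acyl-CoA dehydrogenase, fell by 0.90, 0.95 and 0.93 (SE 0.16 on each day), and Dpyd, the first enzyme of pyrimidine breakdown, by 0.52, 0.64 and 0.72 (SE 0.17). Of 13 genes of carnitine and polyamine metabolism around Aldh9a1, 4 rose and 1 fell on day 7, 5 and 1 on day 14, and 4 and 2 on day 28. Slc22a5, the carnitine transporter, rose from 35.5 ± 5.34 to 146 ± 37.3 CPM on day 7, by 2.04 ± 0.17, and by 2.08 ± 0.17 and 1.84 ± 0.17 on the later days. Over these 8 lists the medians of log2 fold changes at 15 mg/kg lay between -0.34 and 0.36. The share of all genes called at this dose (14.0%, 22.8% and 17.2%) is the background for these counts.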

How the data were processed

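Whole-liver polyA RNA was sequenced from 60 rats, 5 in each of 12 groups of dose and day. The deposited values are counts of reads per gene, 1 column per rat. Per the submitters' processing notes, bcl2fastq 2.20.0.422, Trimmomatic 0.33, STAR 2.5.2b and featureCounts (Subread 1.6.0) were used with Rnor_6.0. The annotation release, settings and strand setting are not given in the sources used here. The 10602 genes without a symbol held 1.39% of reads and stayed in the fit.

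Counts of 12167 genes that passed filterByExpr (minimum count 10, total 15) were fitted with edgeR 4.0.16 (R 4.3.3), with TMM scaling, 1 mean per group and 48 residual degrees of freedom. Totals had a median of 12606152. P-values were adjusted by Benjamini-Hochberg over these genes. The design text calls each rat a biological replicate, and replicate numbers follow accession order. Within groups, libraries differed by far more than counting noise (lowest chi-square per degree of freedom 17.3). Alternatives were DESeq2 1.42.0, limma-voom (limma 3.58.1), other size factors and filters, a library score covariate and leaving out libraries. The script was tested on simulated data. Promoters were read from a RefSeq table.

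The members and lists were chosen with earlier results of these data known. Named partner genes are drawn from those up to 3 called in each direction with the largest change at 15 mg/kg on day 28, with the 3 genes most correlated over group means (mean CPM of at least 1) for members called in at least 6 comparisons. Cyp4a1 was also a reference gene of the PFOA response, as were Acot1 and Cyp2b1, which rose at 15 mg/kg on day 28 by 9.43 ± 0.68 and 4.66 ± 0.56. The summed count of Aldh1a1 and Aldh1a7 and the treated groups across days were added after the data were seen.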

Additional observations from a re-analysis of the deposited data

Results flagged for a closer look

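In 5 of 108 groups of 5 livers (9 genes, 12 groups), 1 liver stood apart from its group by Dixon's ratio of the gap to the range (critical value 0.71), and chance gives about 1 in 20. Aldh1a1 was low in replicate 4 of PFOA 1 mg/kg on day 7, at 351 CPM against 537 in the nearest liver (ratio 0.736). Aldh1b1 was high in replicate 4 of PFOA 1 mg/kg on day 28, at 31.1 CPM against 3.51 (ratio 0.931). Aldh3a2 was high in replicate 5 of PFOA 15 mg/kg on day 28, at 1010 CPM against 871 (ratio 0.806). Aldh7a1 was low in replicate 3 of PFOA 15 mg/kg on day 14, at 125 CPM against 274.1 (ratio 0.796). Aldh8a1 was low in replicate 2 of PFOA 15 mg/kg on day 28, at 206 CPM against 503 (ratio 0.769).

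The effect of 1 mg/kg on Aldh1a1 on day 28 minus that on day 7 was 2.06 on the log2 scale (edgeR interaction term, adjusted p = 0.0106). This contains the vehicle shift for which the gene was chosen, so it is a description and no independent test. With the counts of Aldh1a1 and Aldh1a7 summed it was 1.90 (edgeR adjusted p = 0.183).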

How the results depend on the processing

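Direction was compared only where the main fit or the alternative called the gene. Of 2082 values of single genes under other settings, 2046 kept their side of the threshold, 12 lost the call and 23 gained one. In 1 value the sign changed with a call, namely Aldh1l1 at 15 mg/kg on day 14, at -0.63 with the library score. With 1 library left out, 3206 of 3240 values kept their side, 22 lost the call, 12 gained one and 0 changed sign with a call. Values called in neither fit could change sign. Aldh1b1 at 1 mg/kg on day 28, at 0.93, went as low as -0.83 with 1 library left out. DESeq2 size factors and limma-voom changed the call of 0 of 270 values each. With the library score, the count of called genes was 4 at 15 mg/kg on days 7, 14 and 28 and 4 at 5 mg/kg on day 28 (2 in each without it), 3 on day 14 and 2 on day 28 at 1 mg/kg (1 without), 2 and 4 for 5 against 1 mg/kg on days 7 and 14 (1 and 3 without, Aldh3a2 and Aldh1a1 being added), and 1 for 1 mg/kg on day 14 against day 7 (0 without). With the Wald test it was 4 at 1 mg/kg on day 14, and 2 and 6 for 5 against 1 mg/kg on days 7 and 14 (1 and 3 with edgeR, Aldh3a2 being added in both). For that step on day 14 the Wald test also added Aldh1b1 (-1.64, adjusted p = 0.0498) and Aldh9a1 (-0.59, adjusted p = 0.0399). Without the 3 libraries of score below -1.5 the count was 3 at 1 mg/kg on day 14 and 0 for 5 against 1 mg/kg on day 14. A minimum fold of 1.5 left 1 at 15 mg/kg (days 7 and 28) and at 5 mg/kg (days 14 and 28). A fit of day 7 alone left 1 at 15 mg/kg. For vehicle on day 28 against day 7, a fit of those groups left 0, as did summing Aldh1a1 and Aldh1a7, which also left 0 for the change of the 1 mg/kg effect. The cause was not tested. With 1 library left out, the count ran from 1 to 4 at 1 mg/kg on day 14 (4 without vehicle replicate 2, and 3 without 1 mg/kg replicate 4), from 1 to 2 at 5 mg/kg on day 28, from 1 to 2 for 5 against 1 mg/kg on day 7 (2 without replicate 3 of either dose), from 0 to 5 for that step on day 14, from 0 to 1 for vehicle on day 28 against day 7, and from 0 to 1 for 5 mg/kg on day 28 against day 7 (1 without day 7 replicate 2). Fits of single time points were not run for comparisons across days other than vehicle. No paired analysis was run, because each library came from a different rat and the labels name no pairs.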
